A study of Drosophila melanogaster with 2 samples.

Results

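The genes described here encode the factors that start, extend and end protein synthesis in Drosophila melanogaster. They were taken by symbol, as all protein-coding genes named eIF, eEF or eRF followed by a digit, which gave 53 of 13968 protein-coding genes. Of these, 44 are named as initiation factors, 7 as elongation factors and 2 as release factors. The data are peaks of chromatin bound by chameau (chm), a histone acetyltransferase of the MYST family, carried as a chm-eGFP fusion by transgenic flies. Whole embryos of the chm-GFP strain aged 0 to 24 h were used, chromatin was sheared by sonication, and the fusion was precipitated with an antibody against GFP. There were 2 biological replicates of this single group, replicate 1 and replicate 2, and no other genotype, stage or input was used here; the labels name a possible control experiment, which was not used. The labels describe an insertion aimed at chm; whether untagged chm was also present is not given in them. Since whole embryos mix all cell types, binding in few cells and weak binding in many cells cannot be told apart.

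Translation begins when a small ribosomal subunit with initiator tRNA is brought to the mRNA cap and scans to the start codon, steps that the eIF proteins carry out. The eEF proteins then deliver aminoacyl-tRNAs and move the ribosome along, and the eRF proteins recognise stop codons and free the finished chain. Most of these proteins are needed in every growing cell, while some paralogues in the fly, such as eIF4G2, serve the male germline. Acetylation of histones at gene starts is a mark of active promoters.

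Peak lists were deposited for the reads of both replicates together and for each replicate. They hold no read totals, so depth is unknown. A peak's signal is the deposited value of the authors' peak caller, whose scale is not given. The conservative list (4202 peaks, median signal 94.1 on the chromosome arms) holds peaks matched between the replicates by rank, with an irreproducible discovery rate (IDR) past the authors' threshold. It is the list meant below unless another is named. The pooled list held 6176 peaks, and the lists of replicates 1 and 2 held 3554 and 4106. A promoter summit is a peak summit within 500 bp of any annotated protein-coding transcript start of the gene.

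Translation factor genes had a promoter summit at 20 of 53 genes (37.7%, 95% Wilson interval 25.9 to 51.2%, which covers counting error only). Among all protein-coding genes 16.8% had one. In the pooled list the count was again 20 of 53, against 21.2% of all genes. Replicate 1 gave 15 translation factor genes (28.3%) against 13.5% of all genes, and replicate 2 gave 17 (32.1%) against 17.2%. Over the replicates the share was 30.2% ± 2.67 for translation factor genes and 15.3% ± 2.63 for all protein-coding genes (SD, n = 2). The share of translation factor genes thus lay above that of all genes in each of the 4 lists, which all rest on the same 2 replicates. No test of this difference was made, because the genes were chosen with results of these data known.

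**Figure D1:**
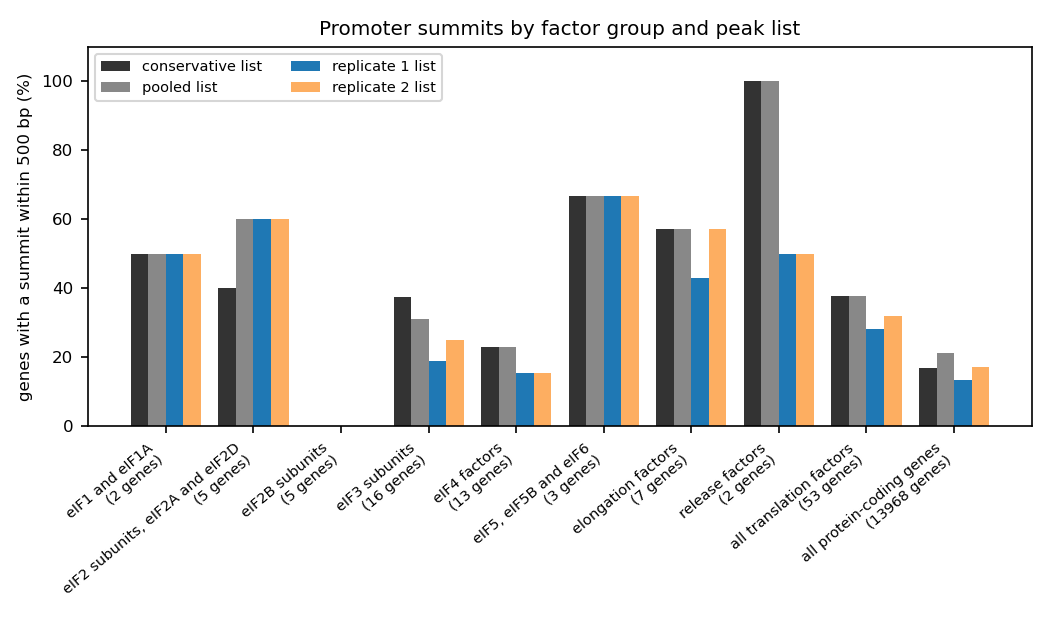
Share of genes, in percent, with a summit within 500 bp of a start, for the 8 factor groups, all 53 translation factor genes and all 13968 protein-coding genes; each bar is 1 of the 4 peak lists, with the number of genes under each name. The eIF2B subunits have no bar in any list, and the 53 genes together stand at 37.7% in the conservative list against 16.8% of all genes.

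Windows of 101 bases were read at 16 of the 23 promoter summits of these genes. The other 7, at eIF6 (which had the strongest promoter peak), eEF1alpha1, eEF5, eIF3b, eIF3c and eIF3m, are not shown here. Of the 16, 6 held a match to 1 of the 8 elements searched and 10 held none. The 6 with an element are given to show where it lies, whatever their signal, and 3 of those without one because their peaks had the highest signals among the 10 (eIF4EHP, eIF1 and eIF3h). Each is written on the strand of the translation factor gene, 5′ to 3′, with the summit at base 51, from the release 6 genome sequence of RefSeq (dm6 coordinates). Capitals mark a DREF element (TATCGATA), the TCT initiator or a GAGA element (GAGAGAG, or its reverse complement). The windows are chr3R:29220117-29220217 on the plus strand (eEF1gamma), chr2L:21682060-21682160 on the minus strand (eEF2), chr3R:15263435-15263535 on the minus strand (eIF2gamma), chr3R:4433889-4433989 on the minus strand (eIF3a), chr3L:20348283-20348383 on the plus strand (eRF1), chr3L:9401935-9402035 on the minus strand (eIF4E1), chr3R:24109212-24109312 on the minus strand (eIF4EHP), chr3L:3222947-3223047 on the plus strand (the stronger summit of eIF1) and chr2L:5052420-5052520 on the minus strand (eIF3h).
eEF1gamma: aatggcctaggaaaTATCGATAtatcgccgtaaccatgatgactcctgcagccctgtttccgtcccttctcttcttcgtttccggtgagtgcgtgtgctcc
eEF2: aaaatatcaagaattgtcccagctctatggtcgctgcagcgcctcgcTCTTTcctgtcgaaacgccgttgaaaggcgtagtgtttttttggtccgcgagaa
eIF2gamma: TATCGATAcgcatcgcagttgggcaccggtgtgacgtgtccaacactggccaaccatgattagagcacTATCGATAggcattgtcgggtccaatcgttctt
eIF3a: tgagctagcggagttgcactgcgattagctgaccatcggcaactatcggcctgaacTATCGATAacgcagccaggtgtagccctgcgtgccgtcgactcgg
eRF1: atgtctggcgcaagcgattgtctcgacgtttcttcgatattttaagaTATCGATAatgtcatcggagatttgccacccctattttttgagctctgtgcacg
eIF4E1: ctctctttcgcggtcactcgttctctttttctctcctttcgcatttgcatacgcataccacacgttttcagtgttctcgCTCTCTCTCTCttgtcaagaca
eIF4EHP: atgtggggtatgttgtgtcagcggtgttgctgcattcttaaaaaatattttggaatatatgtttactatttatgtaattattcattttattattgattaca
eIF1: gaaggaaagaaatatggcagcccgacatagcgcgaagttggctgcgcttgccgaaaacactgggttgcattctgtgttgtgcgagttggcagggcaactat
eIF3h: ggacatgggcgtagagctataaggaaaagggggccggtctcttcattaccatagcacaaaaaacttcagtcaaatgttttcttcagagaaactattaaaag

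The windows differed in what they held. DREF elements stood in those of eEF1gamma, eIF2gamma, eIF3a and eRF1, the TCT initiator in that of eEF2 and a GAGA element in that of eIF4E1. The eRF1 and eIF4E1 peaks were below the list's median signal. The windows of eIF4EHP, eIF1 and eIF3h held no match to the elements searched.

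The eIF1 and eIF1A proteins bind the scanning small subunit and keep start codon choice accurate. eIF1 had a pair of promoter summits. The stronger, with a signal of 292 (184 in replicate 1, 104 in replicate 2; mean 144 ± 56.5, SD, n = 2), lay 344 bp upstream of eIF1 and 37 bp from a start of the ribosomal protein gene RpL28 (chr3L:3222903-3223075). The weaker lay 441 bp inside eIF1, in a coding exon (signal 78.2, with 38.4 in replicate 1 and 40.7 in replicate 2). eIF1A had no promoter summit in the 4 lists.

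The eIF2 group brings initiator tRNA to the small subunit. eIF2gamma, its GTP-binding subunit, had a summit 27 bp upstream of a start, with a signal of 124 (60.7 in replicate 1 and 50.9 in replicate 2). The start of the heterochromatin gene Su(var)3-9 lay at the same distance, and a start of Set lay 67 bp away (chr3R:15263317-15263652). eIF2D, a factor that can place tRNA on the small subunit without eIF2, had a summit 110 bp upstream of its start (chr3R:29151736-29152071; signal 109, with 52.2 and 57.8 in replicates 1 and 2). eIF2A had a promoter summit in the pooled list (signal 97, 41 bp from a start) and in the list of replicate 1 (signal 69), and eIF2beta in that of replicate 2 only (signal 37.3, 305 bp away). eIF2alpha, the subunit that stress kinases phosphorylate, had none in the 4 lists.

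None of the 5 subunits of eIF2B, which reloads eIF2 with GTP, had a promoter summit in any of the 4 lists. The share of all genes in these lists was 13.5 to 21.2%. Among peaks of any rank, with no threshold, eIF2Balpha, eIF2Bdelta and eIF2Bepsilon had a promoter peak in both replicates, of signal 13.6 to 34.4. Such a peak in both replicates, of whatever signal, was found at 54.9% of all protein-coding genes. The strongest peak of the whole conservative list lay 670 bp upstream of the eIF2Bbeta start, with a signal of 1374 (651 in replicate 1 and 716 in replicate 2). Its summit was 49 bp from a start of the neighbour Ugalt, so it counts as a promoter summit of Ugalt and not of eIF2Bbeta.

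eIF3, the largest initiation factor, is a scaffold on the small subunit. Of its 16 genes, 6 (37.5%) had a promoter summit in the conservative list, against 16.8% of all genes, and 5 (31.2%) in the pooled list, against 21.2%. The shares were nearer to those of all genes in the replicates' own lists, with 3 (18.8%) against 13.5% in replicate 1 and 4 (25%) against 17.2% in replicate 2. eIF3h had the strongest, in an intron 310 bp downstream of a start (chr2L:5052392-5052538; signal 157, with 85.9 in replicate 1 and 83.3 in replicate 2). The eIF3a summit lay 44 bp upstream of its start and 26 bp from that of CG1074 (chr3R:4433771-4434106; signal 141). Its replicates differed most among the members by ratio, with 108 in replicate 1 and 43.9 in replicate 2, a mean of 75.9 ± 45.3 (SD, n = 2). eIF3c had a summit 18 bp upstream (chr2R:17665492-17665827; signal 107, with 69.3 and 42.3 in replicates 1 and 2).

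The other eIF3 peaks were weaker than the list's median. eIF3b, a core subunit of eIF3, had a summit 450 bp upstream and 103 bp from a start of Patronin, in a 5′ UTR of that gene (chr2R:17535595-17535930; signal 75.9, with 46.8 in replicate 1 and 29.4 in replicate 2). eIF3m (signal 69.9, 55 bp from a start, with 40.9 and 33.8 in replicates 1 and 2) and eIF3d1 (signal 68.9, 16 bp upstream, with 36.4 and 40.5) were in neither replicate's own list. No promoter summit was found at eIF3d2, eIF3e, eIF3f1, eIF3f2, eIF3g1, eIF3g2, eIF3i, eIF3j, eIF3k or eIF3l. Of the 3 pairs of eIF3 paralogues in the fly, eIF3d1 alone had a summit.

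The eIF4 group recruits the mRNA through its cap. Of 13 genes, 3 (23.1%) had a promoter summit in the conservative list, against 16.8% of all genes. In the pooled list the shares were 23.1% and 21.2%, close to each other. The replicates' own lists gave 15.4% against 13.5% in replicate 1 and 15.4% against 17.2% in replicate 2. eIF4EHP binds the cap without recruiting the scaffold eIF4G and so represses chosen mRNAs in the early embryo. Its summit lay 302 bp upstream of its start and 74 bp from a start of CG18428 (chr3R:24109193-24109360), with a signal of 333 (138 in replicate 1 and 153 in replicate 2; mean 146 ± 10.6, SD, n = 2). The peak was missing from replicate 1's list past the threshold, although its −log10 global IDR in the ranked list of that replicate was 5. eIF4G2, a scaffold of the male germline, had a summit 106 bp downstream of a start, in a 5′ UTR of both it and CG33111 (chr3R:23818963-23819298; signal 124, with 72.4 and 49 in replicates 1 and 2). The main cap-binding protein gene eIF4E1 had a summit 152 bp downstream of a start, in its 5′ UTR (chr3L:9401817-9402152). The peak had a signal of 88.3, with 45.8 and 38.2 in replicates 1 and 2, and of the replicates' own lists was in that of replicate 1 only.

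The 5 other genes of the eIF4E family, eIF4E3 to eIF4E7, had no promoter summit in the 4 lists past the threshold. The same held for eIF4A, the RNA helicase that unwinds the mRNA leader, and for eIF4B, eIF4G1, eIF4H1 and eIF4H2. The eIF4A entry needs its ranked peaks beside it. A peak 40 bp from a start of eIF4A (chr2L:5982386-5982721) had a signal of 93 and a −log10 global IDR of 2.84 in the ranked list that pairs the replicates. The replicates' own ranked lists gave signals of 49.5 in replicate 1 and 47.5 in replicate 2 there, with −log10 global IDR of 3.09 and 2.91. All 3 values pass the IDR of 0.01 that every listed peak meets, yet the peak is in none of the deposited lists past the threshold, for a reason not given in the sources used here. With every peak past that IDR admitted, 21 of the 53 genes had a promoter summit, against 17.3% of all genes.

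eIF6 keeps free large ribosomal subunits apart from small ones and takes part in making them. It had the strongest promoter peak of the 53 genes, with a signal of 627, rank 39 of 4202 (chr2R:23850307-23850523). Replicate 1 gave 284 and replicate 2 gave 353, a mean of 318 ± 48.5 (SD, n = 2). The summit lay 109 bp upstream of the eIF6 start, in an intron of ytr and an exon of the antisense RNA asRNA:CR45928. eIF5B, the GTPase that joins the ribosomal subunits, had a summit 21 bp from a start, in its 5′ UTR (chr3L:3460456-3460791; signal 115, with 49.7 and 59.5 in replicates 1 and 2). A second entry of signal 40.9, with its summit 203 bp away, overlapped the first and was paired with the same replicate signals. eIF5, which triggers GTP hydrolysis on eIF2, had no promoter summit and no ranked promoter peak in either replicate.

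Elongation factors had promoter summits at 4 of 7 genes (57.1%) in the conservative list, against 16.8% of all genes. The pooled list gave 57.1% against 21.2%, replicate 1 gave 42.9% against 13.5% and replicate 2 gave 57.1% against 17.2%. In the conservative list the strongest summit of each of the 4 genes had a signal of 166 to 374. The gene with the strongest was eEF1gamma, a subunit of the complex that reloads eEF1alpha with GTP. Its peak (chr3R:29220059-29220243) had its summit 5 bp upstream of a start, a signal of 374, and signals of 210 in replicate 1 and 164 in replicate 2, a mean of 187 ± 32.3 (SD, n = 2). A second peak of signal 70.9 lay 533 bp downstream of a start, in a coding exon and just outside the promoter window. A further summit 5726 bp upstream had a signal of 780, the second strongest within 10 kb of any of the 53 genes, with 444 in replicate 1 and 348 in replicate 2. It lay outside the 500 bp windows of all protein-coding starts, with eEF1gamma as the nearest protein-coding gene, and 116 bp from a start of the noncoding gene lncRNA:CR31044.

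eEF2, the GTPase that moves the ribosome along the mRNA, had its summit 6 bp downstream of 1 of its 2 annotated starts, in its 5′ UTR. The peak (chr2L:21682096-21682207) had a signal of 257. Replicate 2 gave a signal of 122 there. No peak of any rank in replicate 1's own list spanned that summit, although the ranked list that pairs the replicates, without naming them, holds signals of 132 and 122 for it. The annotated start nearest the summit is base 45 of the eEF2 sequence, and the TCTTT run begins 3 bases after it.

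eEF1alpha1, which carries aminoacyl-tRNAs to the ribosome, had a pair of promoter summits on 2R. The stronger lay 49 bp downstream of a start, in the gene's 5′ UTR (chr2R:11892003-11892338). Its signal was 196, with 116 in replicate 1 and 79.5 in replicate 2. The other lay 208 bp upstream of a start, in the 5′ UTR of the neighbour ERp60 and 52 bp from a start of that gene (signal 148, with 65 and 78.9 in replicates 1 and 2). eEF5, the fly gene for the hypusine-bearing factor eIF5A, had a summit 3 bp inside its 5′ UTR (chr2R:24057633-24057968). Its signal was 166, with 89.6 in replicate 1 and 77.2 in replicate 2. Within 5 kb downstream of eEF5 lay summits 3 bp from a start of RpL12 (signal 110) and 6 bp from a start of RpL39 (signal 154), both ribosomal protein genes. The other elongation factor genes, eEF1alpha2, eEF1beta and eEF1delta, had no promoter summit in any of the 4 lists, although eEF1beta and eEF1delta act in the same complex as eEF1gamma.

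Both release factor genes, against 16.8% of all genes, had a promoter summit of a signal close to the median of the list. eRF1, which reads the stop codon, had it 22 bp upstream of a start (chr3L:20348165-20348500; signal 92, with 59.4 in replicate 1 and 31.9 in replicate 2). eRF3, the GTPase that works with eRF1, had it 145 bp upstream (chr2L:12434139-12434474; signal 91.4, with 35.6 in replicate 1 and 40 in replicate 2). The eRF3 summit lay in an intron of SC35, a splicing factor gene, and within 500 bp of a start of it. The eRF3 peak was in neither replicate's own list past the threshold, whereas the eRF1 peak was in both.

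**Figure D2:**
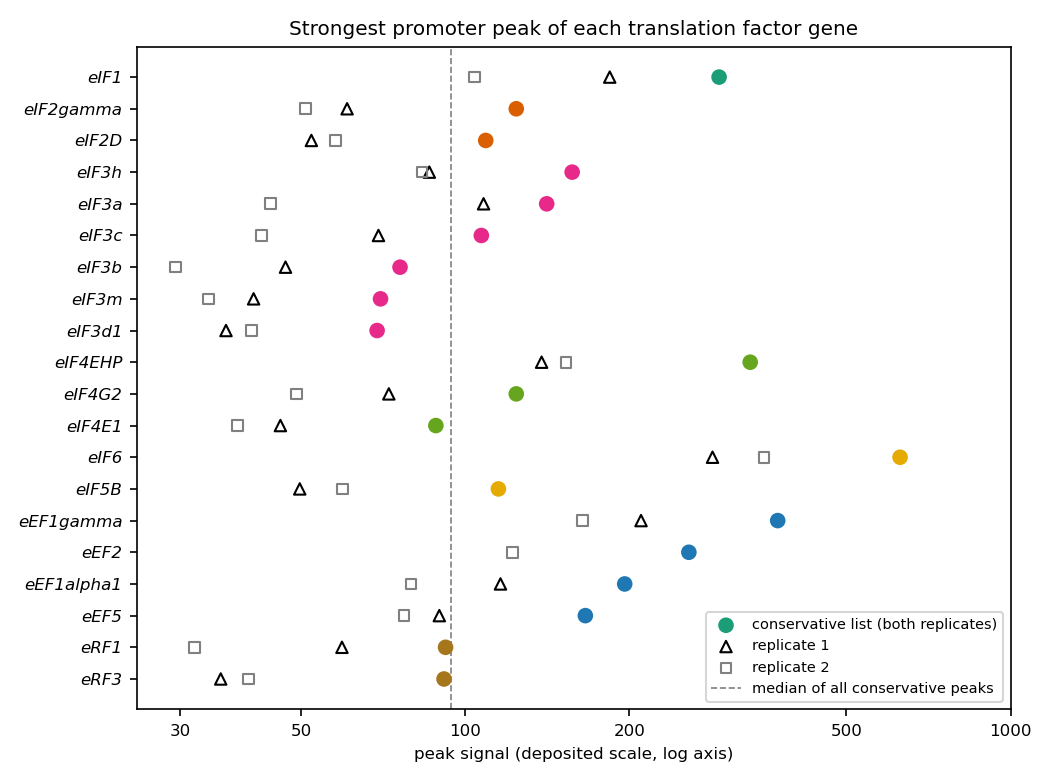
Deposited signal (log axis) of the strongest promoter peak of the 20 genes that have one, in the conservative list (filled circles, coloured by factor group) and at the same summit in replicate 1 (open triangles) and replicate 2 (open squares); the dashed line is the median of all conservative peaks, 94.1. eIF6 stands highest at 627, and eEF2 has no triangle because no replicate 1 peak spanned its summit. Above the dashed line lie 14 of the 20 genes. Of all 2350 protein-coding genes with a promoter summit, 1435 had one in the stronger part of the list, split at its median.

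Across the 20 genes the strongest promoter signal had a median of 124, against 108 over all 2350 protein-coding genes with a promoter summit. In the list of replicate 1 these medians were 72.4 for translation factor genes and 64.7 for all genes, and in replicate 2 they were 59.5 and 57.2. Of the 20 genes, 5 (eIF6, eEF1gamma, eIF4EHP, eIF1 and eEF2) reached a signal of 213, which bounds the strongest 10% of the list, against 13.2% of all genes with a promoter summit. Of the 23 promoter peaks, 16 (69.6%) were overlapped by a listed peak of each replicate over at least 50% of the shorter peak, against 52.7% of all 2159 promoter peaks. The 16 include both overlapping entries of eIF5B. Across the 21 promoter peaks spanned by ranked peaks of both replicates, the log2 signals of the replicates gave a Pearson r of 0.87, and their ranks gave a Spearman rho of 0.82. Over 1990 promoter peaks of all genes r was 0.76 and rho was 0.62. These describe peaks, which share libraries and are not independent.

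**Figure D3:**
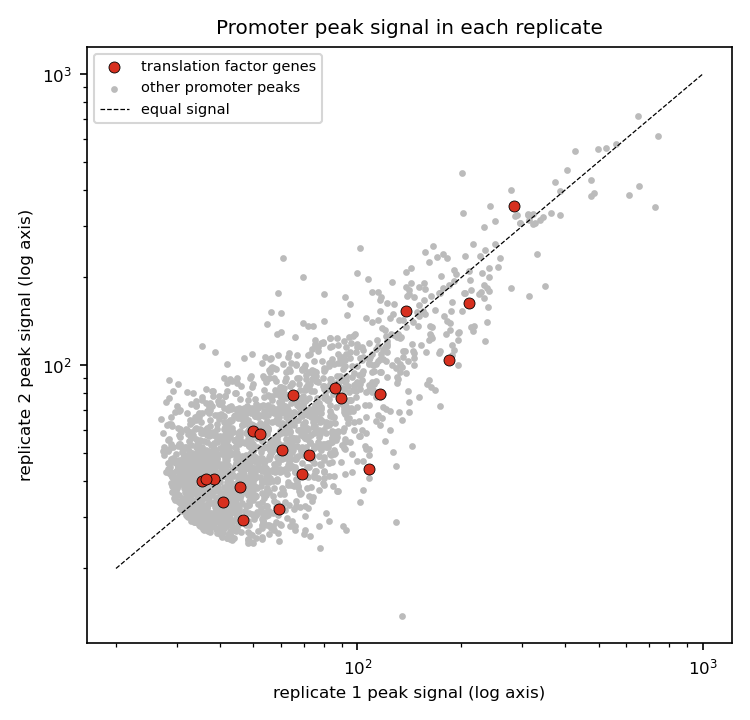
Signal of promoter peaks in replicate 1 (horizontal) and replicate 2 (vertical), both on log axes, for 21 peaks of translation factor genes (large red points) and the other promoter peaks (small grey points), with a dashed line of equal signal. Replicate 1 is higher at 13 of the 21 red points, against 1037 of the 1990 promoter peaks of all genes. The highest red point is eIF6, at 284 and 353.

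The median distance from the strongest promoter summit to a start was 52 bp for translation factor genes and 89 bp for all genes with a promoter summit. Within 100 bp lay 55% of the translation factor summits and 54.6% of those of all genes. The summit was upstream at 14 of the 20 genes (70%), against 65.2% of all. By annotation, 13 of the 23 promoter summits were upstream of the gene, 8 in its 5′ UTR, 1 in a coding exon and 1 in an intron. At 10 of the 20 genes (50%) the strongest summit also lay within 500 bp of a start of another protein-coding gene, against 44.9% of all, and at 16 (80%) the translation factor gene was the nearest, or tied as such, against 78.9%. RpL28, ERp60, CG1074, CG18428 and Patronin were neighbours with the nearer start to a promoter summit of eIF1, eEF1alpha1, eIF3a, eIF4EHP and eIF3b.

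The number of annotated starts moved with the share. Of 31 translation factor genes with a single start, 6 (19.4%) had a promoter summit, against 11.9% of all genes with a single start. Of 22 with more starts, 14 (63.6%) had a promoter summit, against 30.4% of all genes with more starts. Genes with more than 1 start made up 41.5% of translation factor genes and 26.5% of all genes. The part of start number in the higher share was not tested. All 7 members on the X chromosome (eIF2alpha, eIF2Bbeta, eIF2Bepsilon, eIF3g1, eIF4E7, eIF4H1 and eIF5) lacked a promoter summit, where 14.1% of all X-linked genes had one.

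Within 10 kb of a start, 34 of the 53 genes (64.2%) had a summit in the conservative list, against 49.6% of all genes. These 34 include the 20 with a promoter summit, as the 6929 of all genes include the 2350 with one. The share within 10 kb is therefore not separate from the promoter share. The pooled list gave 36 (67.9%) against 58.1%, replicate 1 gave 30 (56.6%) against 43.6% and replicate 2 gave 32 (60.4%) against 50.1%. The mean number of summits within this distance was 1.38 per translation factor gene and 0.997 per protein-coding gene. eIF3h had the most, 6. Of the 50 distinct summits that lay beyond 500 bp, 37 were at a promoter of another protein-coding gene and 13 were not. Of all 4195 conservative peaks on the arms, wherever they lay, 2159 were promoter peaks of a protein-coding gene. The translation factor gene was itself the nearest gene for 7 of the 50, at eEF1alpha1, eEF1gamma, eEF2 and eIF4H2.

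**Figure D4:**
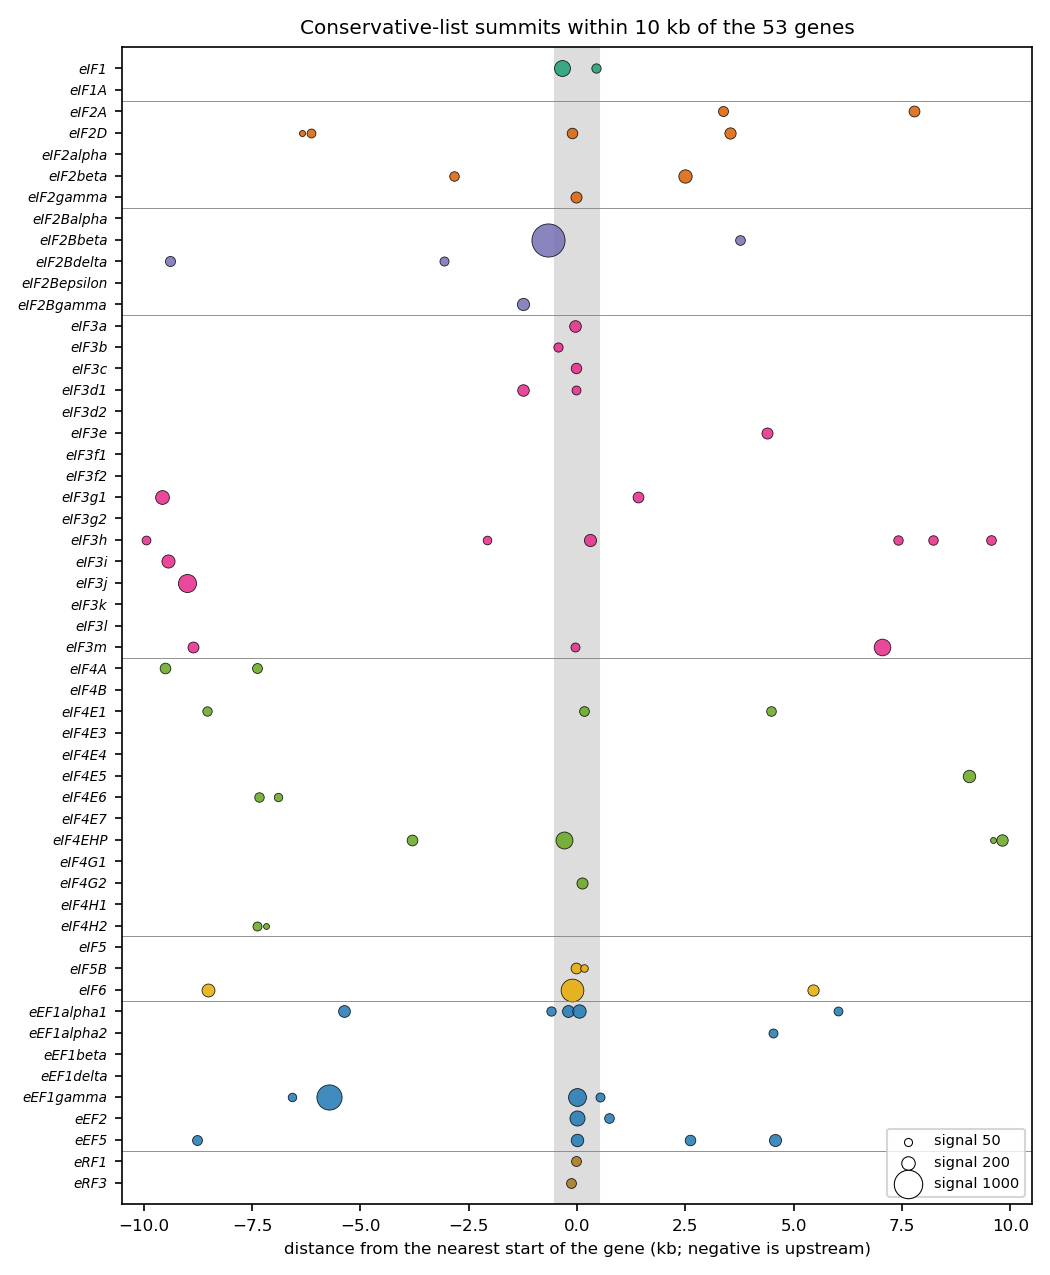
Position of every conservative-list summit within 10 kb of the 53 genes, as the distance in kb from the nearest start of the gene (negative is upstream); each row is a gene, colours and lines separate the factor groups, point area rises with signal and the grey band is the 500 bp promoter window. The large points outside the band are the Ugalt peak beside eIF2Bbeta (1374) and the upstream peak of eEF1gamma (780).

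Over all 13968 protein-coding genes, 6929 had a summit within 10 kb, and 2350 of these had one in the promoter. A summit elsewhere within 10 kb was thus common among all genes without a promoter summit too. Of the 33 translation factor genes without a promoter summit, 14 had a summit elsewhere within 10 kb. The 5 strongest such summits were all at promoters of other genes. Besides the Ugalt peak at eIF2Bbeta, they were 9008 bp upstream of eIF3j at Pal1 (signal 386), 9578 bp upstream of eIF3g1 at Seipin (210), 2497 bp downstream of the eIF2beta start at ver and the acetyltransferase gene Gcn5 (195), and 9441 bp upstream of eIF3i at CG3792 (187). The other 19 genes had no listed summit within 10 kb. They included eIF2alpha, eIF5, eIF4G1, eIF4B, eEF1beta and eEF1delta.

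Peaks of any rank, with no threshold, were far more common. A ranked peak with a summit in the promoter was found in both replicates at 33 of 53 translation factor genes (62.3%), against 54.9% of all genes. Of the 33 genes without a conservative promoter summit, 14 had such a ranked peak in both replicates, 12 in a single replicate and 7 in neither. Their signals ran from 4.54 to 69 in replicate 1 (median 19.1, 18 genes) and from 5.96 to 47.5 in replicate 2 (median 23, 22 genes). The 7 without any, of all 53 genes, were eIF3f1, eIF4E3, eIF4E4, eIF4E6, eIF4E7, eIF4G1 and eIF5. Over all 13968 protein-coding genes, 3043 had none in either replicate. The highest signal in replicate 1 was that of eIF2A, whose peak is in that replicate's list past the threshold, and the highest in replicate 2 that of eIF4A, whose peak passes the IDR as given above.

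In promoters of 300 bases (250 before to 50 from the most 5′ annotated start on), the DREF element TATCGATA was found at 6 of 20 translation factor genes with a promoter summit (30%) and at 9 of 33 without one (27.3%). It was in 12.9% of promoters of all genes with a promoter summit and in 9.36% of all promoters. DREF is a transcription factor of growth and replication genes in the fly. The element was thus about equally frequent at members with and without a summit. Within 100 bp of the summit it lay at 5 of 23 promoter summits of translation factor genes (21.7%), against 5.47% of all promoter summits. For the other elements searched there the shares were 4.35% against 5.28% for the motif 1 core, 4.35% against 9.36% for GAGA, 4.35% against 2.92% for the E-box, 4.35% against 5.65% for motif 7, 0% against 3.8% for AP-1 and 21.7% against 22.1% for the TATA box. The core of the motif 1 element, GGTCACAC, was at 0 of 20 translation factor genes with a summit and 6 of 33 without (18.2%). It was in 11.6% of promoters of all genes with a promoter summit and in 7.69% of all promoters.

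The remaining elements were searched in the same windows, on both strands except for the TCT initiator. The GAGA element GAGAGAG was at 0 of 20 genes with a summit and 1 of 33 without, against 5.86% of all promoters. The E-box CACGTG was at 1 (5%) and 3 (9.09%), against 4.2%. The motif 7 element CATCNCTA was at 3 (15%) and 5 (15.2%), against 6.41%. The AP-1 element TGANTCA, which Jun and Fos bind, was at 1 of 20, eIF4EHP, and 0 of 33, against 6.18%. The TATA box TATAAA was at 12 (60%) and 13 (39.4%), against 45.8%. The TCT initiator, TCTTT or CCTTT on the gene's strand with its C within 5 bases of a start, is known from ribosomal protein genes. At any annotated start it was found at eEF2, eEF5 and eIF3m among the 20 genes with a summit (15%) and at eIF3f1, eIF3i and eIF4A among the others (9.09%). The shares were 5.79% of all genes with a promoter summit and 3.31% of all genes. At the most 5′ start alone the initiator was at 0 and 3 of the translation factor genes, against 2.68% and 2.19%. The eIF4A promoter, which has no listed peak, held the DREF, E-box, motif 7, TATA and TCT letters. These are matches of letters in a window, not sites.

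**Figure D5:**
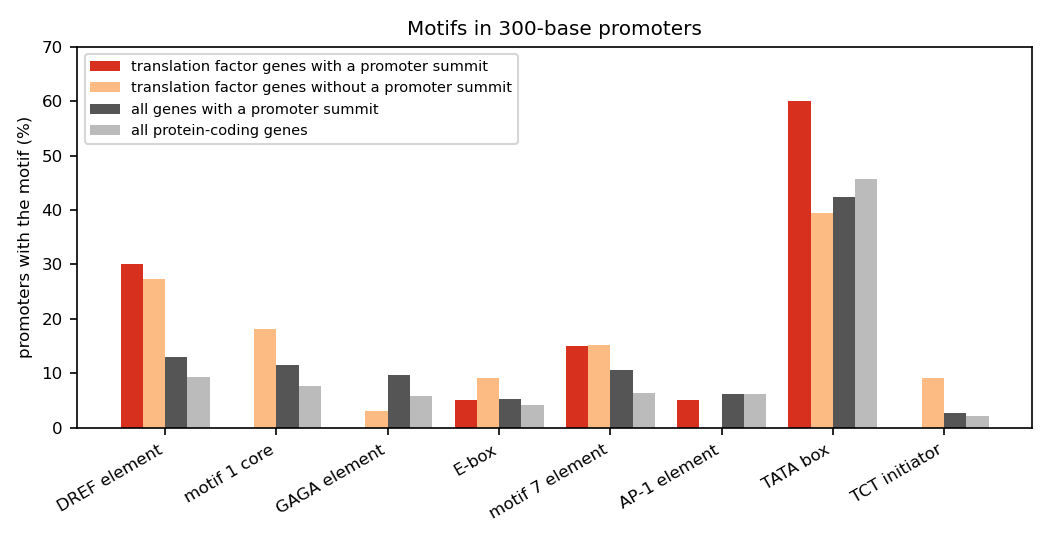
Share of 300-base promoters, in percent, that hold each of 8 elements, for translation factor genes with a promoter summit (20), those without (33), all genes with a promoter summit (2350) and all protein-coding genes (13968). The DREF element stands at 30% and 27.3% in the translation factor genes, against 9.36% of all promoters.

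Regulators and partners of these factors that the symbol rule does not reach were listed apart. Of 26 listed, 25 matched a gene, and 4 (16%) had a promoter summit in the conservative list, against 16.8% of all genes. They were Thor, the repressor that binds eIF4E (signal 258), the La-related gene larp (124), the poly(A)-binding protein gene pAbp (123) and Paip2, which binds that protein (75.8). The other lists gave higher shares than over all genes: 10 of the 25 (40%) against 21.2% in the pooled list, 6 (24%) against 13.5% in replicate 1 and 8 (32%) against 17.2% in replicate 2. Of 9 listed mitochondrial factors 8 matched and none had a promoter summit in the conservative list or in either replicate's. mRF1, a mitochondrial release factor, had 1 in the pooled list.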

How the data were processed

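The authors deposited ranked peak lists, and lists past an irreproducible discovery rate (IDR) threshold, for each replicate and for both together. Their genome build is dm6, per the labels. For the aligner and the peak caller, the name is not given in the sources used here or in the file contents. The signal column is the peak signal the authors deposited, and the ranked lists also hold a deposited −log10 of the global IDR. No read totals are given, so depth is unknown; precision rests on the 2 biological replicates of 1 group, and no p-value was computed.

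Computed here with Python 3.11.15, pandas 2.3.3, numpy 2.4.6, scipy 1.17.1 and matplotlib 3.10.9: summits on the 7 chromosome arms were assigned by distance to protein-coding transcript starts of Ensembl release 115 (BDGP6.54). All peak ends lay within the RefSeq release 6 arms, and all 53 genes had an ATG at a coding exon start in that sequence. Replicate signals are those of the strongest peak in the replicate's own ranked list that spans the conservative summit. The window count was tested on simulated data and recovered 200 of 200 planted genes.

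The members, lists and motifs were chosen with earlier results of these data known. Genes named individually were every member with a promoter summit in a list, the 5 strongest distal summits of members without one, the remaining members by name within their factor group, the neighbours whose start shares a summit, and listed other genes with a promoter summit. eIF4A, the 780 peak of eEF1gamma and the other neighbours were chosen after their values were seen. Older symbols were matched through RefSeq synonyms (poly as Elp6); Tor and mEFG2 were not matched. The regulator list was pAbp, Thor, 4E-T, mxt, NAT1, PEK, Gcn2, crc, PPP1R15, larp, Paip2, DENR, MCTS1, pelo, HBS1, pix, Tor, S6k, Dhps, nero, eEFSec, cup, bru1, Larp4B, poly and Lk6. The mitochondrial list was mEFTu1, mEFTu2, mEFTs, mEFG1, mEFG2, mIF2, mIF3, mRF1 and mRRF1. Other peak lists, windows, starts and overlaps were tried as alternatives.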

Additional observations from a re-analysis of the deposited data

How the results depend on the processing

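The count of translation factor genes with a promoter summit stayed within 1.5 times its value in the 10 alternatives over all 53 genes, and the count within 10 kb in all 8. The share of all genes moved with it. The promoter count was 20 (all genes 21.2%) with the pooled list, 20 (17.9%) with peak intervals in place of summits and 14 (10.3%) with the stronger 50% of peaks. It was 16 (14.5%) with a 250 bp and 21 (19.3%) with a 1000 bp window, 19 (14.9%) with the most 5′ start and 17 (13.5%) when a summit counted only for its nearest gene. Without replicate 1 or 2 it ranged from 15 to 17. Split by annotated starts, it was 6 of 31 genes with a single start (19.4%) and 14 of 22 with more (63.6%), shares that both differ from 37.7% by over 1.5 times. The nearest-gene count, the split by starts and the count of all peaks past the IDR threshold were chosen after seeing the data. The median promoter signal of 124 was 162 in the stronger 50% of peaks, which leaves out weak peaks by construction. Without replicate 1 or 2 it ranged from 59.5 to 72.4, on the scale of a single replicate. No paired analysis was possible because both replicates belong to 1 group. With no read totals, what depth limits could not be assessed. Groups of 2 to 5 genes change their share by a large step when a single peak is lost.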

Other observations

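Within 10 kb of the 53 genes, 4 entries of the conservative list overlapped a stronger entry, with summits 203 to 219 bp apart. They were at eIF2D (signal 14.1 beside 68.4), eIF4EHP (11.7 beside 135), eIF4H2 (10.9 beside 70.5) and eIF5B (40.9 beside 115). At eIF2D the replicate 1 peak (47.7) spanned only the summit of the stronger entry and the replicate 2 peak (30.2) only that of the weaker. The eIF3b peak was in the conservative list and not in the pooled list, the only such case among the 20 promoter calls, and eIF2A was the only gene with a promoter summit in the pooled list that had none in the conservative list.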
